A study of Homo sapiens with 6 samples.

Results

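The 10 genes described here (CA9, ADM, VEGFA, NDRG1, BNIP3, BNIP3L, EGLN1, EGLN3, KDM3A and P4HA1) are targets of the hypoxia-inducible factors whose products act outside glycolysis. They were chosen by name, by a rule that used no measured value, but with earlier results of these data known. All 10 were found among the 46427 genes of the count table. RNA was sequenced from 3 human non-small cell lung cancer (NSCLC) cell lines, H460, H1299 and A549, each as a control culture and as a culture transfected with an siRNA against the long non-coding RNA MALAT1 (si-MALAT1). H460 is a large cell carcinoma line, A549 an adenocarcinoma line, and H1299 a line from a lymph node metastasis. There was 1 library per line and condition, 6 in all. The labels call the control cultures non-treated, and whether they received a control siRNA is not stated there. An effect of transfection, if the controls had none, or of the siRNA itself cannot be told apart from that of lower MALAT1. All 6 libraries came from cultures in air with added CO2, and no hypoxic culture was among them, so the name "hypoxia-inducible" is a property of the genes that these libraries did not measure. Each line is a single established line, and each condition of a line is represented by a single library. The methods say in general that experiments were repeated, without tying that to the sequencing.

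The hypoxia-inducible factors are pairs of an alpha subunit, HIF1A or EPAS1 (HIF-2 alpha), and the beta subunit ARNT. In oxygen, prolyl hydroxylases of the EGLN family modify the alpha subunits, VHL marks them for destruction, and HIF1AN blocks their activity by a further hydroxylation. When oxygen falls the alpha subunits persist, bind DNA at the hypoxia response element, whose core reads ACGTG or GCGTG, and raise the RNA of their targets. In tumor cells the same targets can also be on in air, through oncogenic signalling or loss of a regulator, and in NSCLC they are studied as markers of poorly oxygenated tissue. The 10 genes cover pH control (CA9), vessel growth and tone (VEGFA, ADM), mitophagy (BNIP3, BNIP3L), stress-linked differentiation (NDRG1), oxygen sensing itself (EGLN1, EGLN3), histone demethylation (KDM3A) and collagen maturation (P4HA1).

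The core of the response element was looked for, on both strands, in RefSeq promoter sequences of GRCh38.p14 that run from 250 bases before a gene's start to 50 bases after it. An entry was found for 7 of the 10 genes. KDM3A had 2 entries, both with a match, and only the first is classed and shown here. ACGTG was present in the promoters of 4 of them (CA9, BNIP3, EGLN1 and P4HA1), GCGTG alone in 2 (ADM and KDM3A), and neither in EGLN3. Over the 35116 promoters of the table, 21.4% held ACGTG, 36.5% held GCGTG and 48.4% held either. Sequence outside these promoter windows was not searched, so the lack of a match in EGLN3 holds for its window only. The stretches around the matches are shown because this core is the DNA feature that the factors bind. Capitals mark a match to the core or to its reverse complement, and each stretch is written on the strand of its gene.
CA9, chr9:35673898-35673926, plus strand: tcgtttccaatgCACGTacagcccgtaca
ADM, chr11:10304960-10304988, plus strand: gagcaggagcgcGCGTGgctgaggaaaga
BNIP3, chr10:131982011-131982078, minus strand: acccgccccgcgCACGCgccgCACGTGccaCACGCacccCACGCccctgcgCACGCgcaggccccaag
EGLN1, chr1:231422284-231422312, minus strand: gggccgtggtgtACGTGcagagcgcgcag
KDM3A, chr2:86441333-86441361, plus strand: ccgggaggctgtGCGTGtcttgtgagagc
P4HA1, chr10:73096936-73096964, minus strand: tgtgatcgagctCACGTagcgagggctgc
BNIP3 had 6 matches, of which a pair overlap at CACGTG, where the core reads the same way on both strands. In the whole table, 1.98% of promoters had 5 or more. Counted from the RefSeq start, the matches of BNIP3 lay at positions -143 to -104, and those of ADM, P4HA1, KDM3A, CA9 and EGLN1 at -101, -86, -26, -18 and -13. The deposited annotation has other starts for some genes. Against it, the ADM stretch lay upstream of the gene and the BNIP3 stretch upstream but for its last 3 bases. The CA9, EGLN1 and P4HA1 stretches lay wholly within exonic sequence. The KDM3A stretch was exonic over 15 of its 29 bases. A match of 5 letters is a description of the sequence, and binding was not measured in these libraries.

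The libraries held 42506818 to 68515992 reads on genes. MALAT1, the targeted gene, was lower after si-MALAT1 in each line, by 2.32 to 2.96 on the log2 scale, and its adjusted p over the 3 lines was 0.0381 in edgeR's quasi-likelihood test with Benjamini-Hochberg adjustment over 19122 genes. The call on MALAT1 was lost without H1299 (0.125) and without A549 (0.275). The epithelial keratins KRT8 and KRT18 were at a TPM (a read level scaled for gene length and library size) of 123 to 2918, EPCAM was at 0.252 to 8.04 TPM, and the blood and endothelial markers PTPRC and CDH5 had 0 reads in all libraries and PECAM1 at most 8. CDKN2A, deleted in H460 and A549, had 0 reads there and at least 2679 in the H1299 libraries.

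The levels of the 10 genes differed far more between the 3 cell lines than between control and si-MALAT1 cells. The same held for the 19122 genes tested as a whole. Their median log2 difference, regardless of sign, was 0.22 after si-MALAT1. Between lines it was 0.83 for H1299 against H460, 0.61 for A549 against H460 and 0.77 for A549 against H1299. Summed over the 10 genes, H460 had a TPM of 344 in control and 315 in si-MALAT1 cells. H1299 had 135 and 194, and A549 had 459 and 396. H1299 was lowest in both conditions, and the ranges of the 3 lines did not overlap. In RNA of a whole culture, fewer cells with a transcript and less of it per cell cannot be told apart. The gap between the highest and the lowest line was from 1.77 times (VEGFA) to 11.8 times (EGLN3) as large, on the log2 scale, as the largest change of the same gene after si-MALAT1. In the paragraphs that follow, differences between lines are log2 differences from the edgeR fit with treatment as a covariate. Their standard error (SE) was worked back from the difference and the F statistic of its quasi-likelihood test. TPM values are given as control, then si-MALAT1. Each line had 2 libraries in that fit, 1 per condition, so its p-values measure the spread between those libraries, and the 3 contrasts share libraries.

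**Figure D1:**
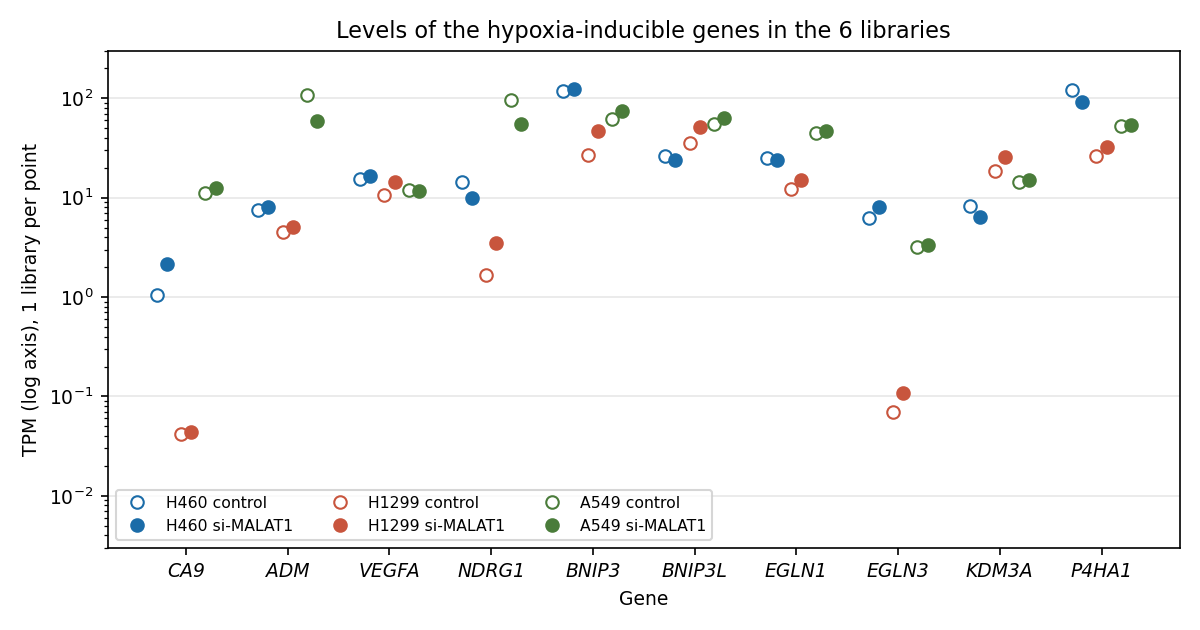
TPM of the 10 hypoxia-inducible genes in each of the 6 libraries, on a log axis, with open points for control and filled points for si-MALAT1 cells, in blue for H460, red for H1299 and green for A549. CA9 and EGLN3 lie at or below 0.108 TPM in H1299, and CA9, ADM and NDRG1 are highest in A549.

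CA9 (Gene ID 768, chromosome 9, 35673809 to 35681159 on the plus strand of GRCh38) codes for carbonic anhydrase IX, a membrane enzyme that hydrates carbon dioxide outside the cell. It was at 1.05 and 2.17 TPM in H460, 0.0416 and 0.0441 TPM in H1299, and 11.04 and 12.6 TPM in A549. In reads these were 101 and 204, 5 and 4, and 598 and 759, so that the H1299 level rests on a handful of reads. A549 was above H460 by 2.60 ± 0.31 (adjusted p = 0.00154), and H1299 was below H460 by a log2 difference of -5.20 ± 0.44 (0.000255). The difference between A549 and H1299, 7.80 ± 0.45 or 223-fold (7.89e-05), was the largest of the 30 comparisons of a gene between 2 lines.

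ADM (Gene ID 133, chromosome 11, 10305073 to 10307397, plus strand) codes for adrenomedullin, a secreted peptide that widens vessels. It was at 7.45 and 8.07 TPM in H460, 4.55 and 5.11 TPM in H1299, and 108.7 and 58.6 TPM in A549. Both A549 libraries were above all libraries of the other lines, by 3.10 ± 0.30 against H460 (0.000692) and 4.14 ± 0.32 against H1299 (0.000214). H1299 was below H460, by a log2 difference of -1.04 ± 0.29 (0.0238). That call was lost without the si-MALAT1 library of H460 (-0.69, adjusted p = 0.12) and without the control library of H1299 (-0.83, 0.131).

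VEGFA (Gene ID 7422, chromosome 6, 43770209 to 43786487, plus strand, 20 annotated transcripts), the main growth factor of blood vessels, was the most even of the 10. It was at 15.4 and 16.3 TPM in H460, 10.5 and 14.3 TPM in H1299, and 11.96 and 11.6 TPM in A549. H1299 (-0.71 ± 0.15, 0.0089) and A549 (-0.69 ± 0.15, 0.0143) were both below H460. The second of these was lost without the control library of A549 (-0.84, 0.0644) or its si-MALAT1 library (-0.52, 0.183). A549 and H1299 did not differ beyond their spread (0.02 ± 0.15, 0.923), and the sign of that difference turned with the setting.

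NDRG1 (Gene ID 10397, chromosome 8, 133237175 to 133297252, minus strand), a stress-induced gene linked to differentiation and to slower spread of tumor cells, was at 14.2 and 10.0 TPM in H460, 1.67 and 3.46 TPM in H1299, and 94.96 and 55.5 TPM in A549. The order A549, H460, H1299 held in both conditions. A549 was above H460 by 2.34 ± 0.39 (0.00541) and above H1299 by 4.91 ± 0.45 (0.000409), and H1299 was below H460 by a log2 difference of -2.57 ± 0.41 (0.0028). All 3 calls held when any single library was left out. The order is that of ADM and CA9 as well, although for ADM the step from H460 to H1299 was the uncertain one.

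The paired mitophagy receptors sit on the outer mitochondrial membrane and mark mitochondria for removal, and they were ordered differently. BNIP3 (Gene ID 664, chromosome 10, 131967683 to 131982013, minus strand) was at 118 and 125 TPM in H460, 26.7 and 46.8 TPM in H1299, and 62.0 and 74.3 TPM in A549. It was highest in H460, with H1299 lower by a log2 difference of -2.12 ± 0.18 (0.000259) and A549 by -1.13 ± 0.18 (0.00406). BNIP3L, also known as NIX (Gene ID 665, chromosome 8, 26383054 to 26413127, plus strand), was at 26.0 and 24.0 TPM in H460, 35.4 and 51.4 TPM in H1299, and 55.0 and 63.8 TPM in A549. It was therefore lowest in H460 in both conditions, the reverse of BNIP3. Its difference between H1299 and H460, 0.42 ± 0.16, did not pass (0.0652), whereas A549 was above H460 by 0.95 ± 0.16 (0.00538) and above H1299 by 0.53 ± 0.16 (0.033). The BNIP3L call for A549 against H1299 was lost without the control library of H1299 (0.148), the control library of A549 (0.176) or the si-MALAT1 library of A549 (0.182), and that against H460 without either A549 library (0.0663 and 0.0547). The BNIP3 difference between A549 and H460 was lost without the si-MALAT1 library of A549 (0.0583), and that between A549 and H1299 (0.99 ± 0.18, 0.00494) without the control library of A549 (0.0549). BNIP3L was called higher in H1299 than in H460 without the control library of H1299 (0.61, 0.0301).

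The prolyl hydroxylases EGLN1 (PHD2) and EGLN3 (PHD3) close a feedback loop, since the factors they inactivate raise their RNA. EGLN1 (Gene ID 54583, chromosome 1, 231363756 to 231422332, minus strand) was at 25.2 and 23.8 TPM in H460, 12.2 and 15.2 TPM in H1299, and 44.7 and 47.2 TPM in A549. EGLN3 (Gene ID 112399, chromosome 14, 33924227 to 33951074, minus strand) was at 6.19 and 8.04 TPM in H460, 0.0696 and 0.108 TPM in H1299, and 3.15 and 3.32 TPM in A549. H1299 was lowest for both, but the size of the gap was not alike. EGLN1 in H1299 was lower than in H460 by a log2 difference of -1.21 ± 0.14 (0.000753), while EGLN3 was lower by -6.63 ± 0.29 or 99.1-fold (2.49e-05), with 11 and 15 reads in the H1299 libraries against 950 and 1318 in those of H460. A549 was above H1299 by 1.83 ± 0.14 for EGLN1 (0.000211) and by 5.24 ± 0.28 for EGLN3 (6.05e-05). Against H460, A549 was higher for EGLN1 (0.62 ± 0.13, 0.0139) and lower for EGLN3 (-1.39 ± 0.21, 0.00357). The EGLN1 difference between A549 and H460 was lost without the si-MALAT1 library of H460 (0.0904), the control library of A549 (0.149) or the si-MALAT1 library of A549 (0.118), and that of EGLN3 without the si-MALAT1 library of A549 (0.0529).

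KDM3A and P4HA1 are oxygen-dependent enzymes of the same broad class as the EGLN proteins, and they ran in opposite directions between H460 and H1299. KDM3A (Gene ID 55818, chromosome 2, 86440647 to 86492716, plus strand), which removes methyl groups from lysine 9 of histone H3, was at 8.20 and 6.36 TPM in H460, 18.3 and 25.4 TPM in H1299, and 14.5 and 15.2 TPM in A549. It was the only one of the 10 called higher in H1299 than in H460 (1.23 ± 0.18, 0.00226). P4HA1 (Gene ID 5033, chromosome 10, 73007217 to 73096974, minus strand), the catalytic subunit of collagen prolyl 4-hydroxylase, was at 122 and 91.5 TPM in H460, 25.9 and 32.2 TPM in H1299, and 52.8 and 54.2 TPM in A549. H1299 was below H460 by a log2 difference of -2.22 ± 0.18 (0.000198), and A549 lay between the others. A549 was below H460 by -1.28 ± 0.17 (0.0023) and above H1299 by 0.94 ± 0.17 (0.00522), the last being lost without the si-MALAT1 library of A549 (0.0617). KDM3A in A549 was above H460 (0.74 ± 0.18, 0.0219), a call lost without the si-MALAT1 library of H460 (0.123) or the control (0.14) or si-MALAT1 (0.128) library of A549. Its difference between A549 and H1299 (-0.49 ± 0.18) did not pass (0.0656), but did so without either H460 library (0.035 and 0.0341) or the control library of H1299 (0.0239).

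Counted over the 10 genes, 8 were called lower and 1 higher in H1299 than in H460, where 26.6% of the 19122 genes tested were called lower and 26% higher. In A549, 6 were called higher and 4 lower than in H460, against 18.9% and 19.3% of all genes. Against H1299, 8 were called higher in A549 and 0 lower, where 24.4% and 24.5% of all genes were. At an unadjusted p under 0.05, 9 of the 10 passed in that last contrast, beside 10705 of 19122 genes, and DESeq2 called KDM3A lower in A549. The median size of the log2 difference was 1.67, 1.21 and 1.41 for the 10 genes in these contrasts, and 0.83, 0.61 and 0.77 for all genes tested. Calls held without any single library for 8 of the 9 genes called in the comparison of H1299 with H460, for 4 of 10 (CA9, ADM, NDRG1 and P4HA1) in that of A549 with H460, and for 5 of 8 in that of A549 with H1299.

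**Figure D2:**
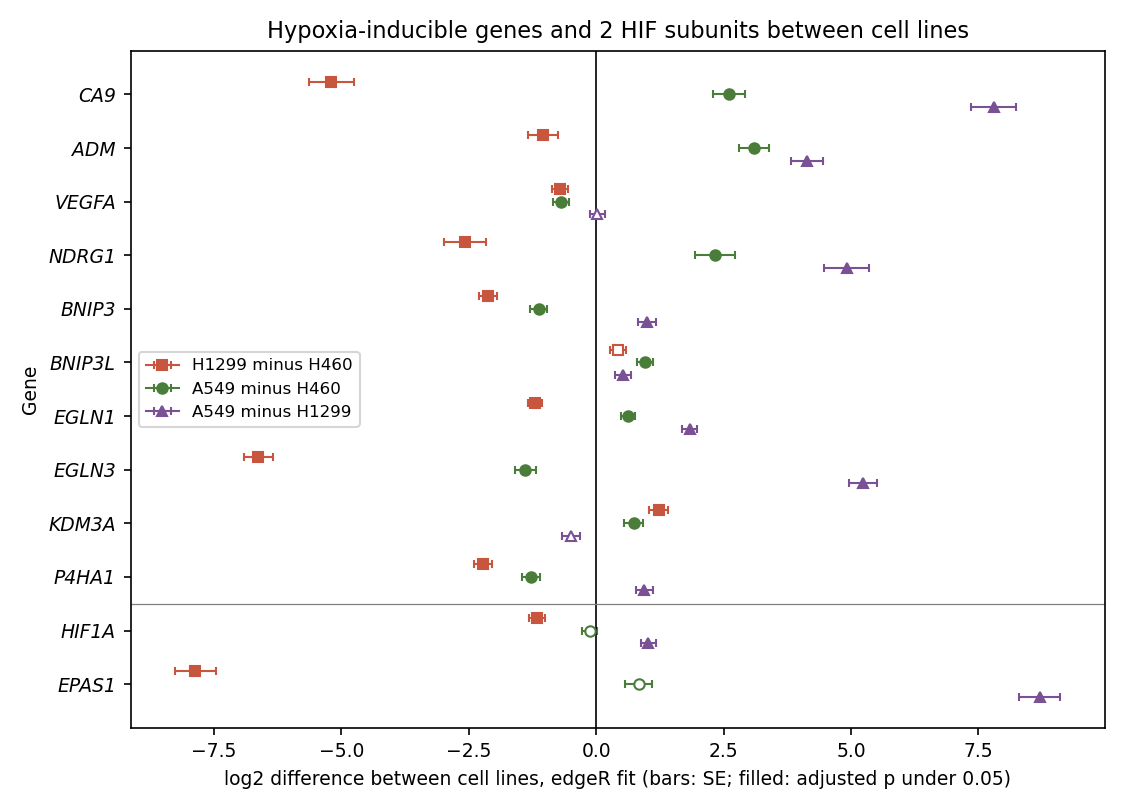
Log2 difference between cell lines, with SE, from the edgeR fit over all 6 libraries, for the 10 genes and, below the line, the subunits HIF1A and EPAS1. Filled symbols have an adjusted p under 0.05. CA9, NDRG1, EGLN3 and ADM spread widest, with A549 above H1299 by 4.14 to 7.80, VEGFA and BNIP3L narrowest, and EPAS1 lies 8.70 higher in A549 than in H1299.

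The subunits of the factors themselves also differed between the lines. HIF1A was at 108 and 90.0 TPM in H460, 50.5 and 62.9 TPM in H1299, and 112 and 108.6 TPM in A549, and was called lower in H1299 than in H460 (-1.16 ± 0.15, 0.00145). EPAS1 was nearly absent from H1299, at 0.042 and 0.11 TPM (13 and 29 reads), against 17.8 and 10.96 TPM in H460 and 33.0 and 28.7 TPM in A549. The EPAS1 difference of A549 over H1299 was 8.70 ± 0.41 or 417-fold (4.22e-05), and H1299 lay below H460 by a log2 difference of -7.87 ± 0.40 (4.04e-05). A549 and H460 did not pass for HIF1A (-0.13 ± 0.15, 0.538) or EPAS1 (0.83 ± 0.27, 0.0524). EGLN2, the prolyl hydroxylase that is not a target of the factors, ran the other way, at 59.1 and 47.5 TPM in H1299 against 8.71 and 9.17 TPM in H460, a difference of 2.22 ± 0.18 (0.00021). ARNT2, a further beta subunit, was above H460 and H1299 in A549 by 4.10 ± 0.27 (0.000163) and 5.67 ± 0.29 (5.66e-05). Of the 12 subunits and regulators tested, 4 were called higher and 3 lower in H1299 than in H460, 4 and 1 in A549 than in H460, and 3 and 3 in A549 than in H1299. ARNT, VHL and HIF1AN were called in none of the 3 contrasts. HIF3A, a further alpha subunit, had 0 reads in 5 libraries and 5 reads in the si-MALAT1 library of A549. Of 30 further targets outside glycolysis, 15 were called lower and 5 higher in H1299 than in H460, and of 18 glycolytic targets 8 were called lower and 0 higher. Over all genes, 26.6% were lower and 26% higher there, and at an unadjusted p under 0.05 11 of the 18 passed, beside 11227 of 19122 genes. In A549 against H460, 7 of the further targets were called higher and 9 lower, and 3 and 9 of the glycolytic ones, beside 18.9% and 19.3% of all genes. In A549 against H1299 the counts were 14 higher and 6 lower, and 7 and 3, beside 24.4% and 24.5%. HIF1A and EPAS1 were thus lower in H1299 than in H460, as were 8 of the 10 genes, CA9 and EGLN3 among them. KDM3A was called higher there (1.23). In A549 against H460, where HIF1A and EPAS1 did not pass, CA9 was higher (2.60) and EGLN3 lower (-1.39). The part of the subunits in the levels of the 10 genes was not tested.

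Knockdown of MALAT1 gave no change that passed the test over the 3 lines in any of the 10 genes. The fit compared each si-MALAT1 library with the control of its own line, and at an adjusted p under 0.05 it called 0% of the 19122 genes tested higher and 0.00523% lower, which is MALAT1 alone. With DESeq2, 2.98% were called higher and 3.1% lower, again with 0 of the 10. At an unadjusted p under 0.05 edgeR and DESeq2 each passed 1 of the 10, and edgeR 2863 of all genes. For single lines there was no test, and changes are given as log2 fold changes of scaled reads with a 95% interval that covers counting error only. A gene was counted as changed in size when it passed 1.5-fold.

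In H460, 1 of the 10 genes was higher by at least 1.5-fold after si-MALAT1 and 0 were lower, where 9.5% and 10.3% of the 17834 genes with reads in each library were. In H1299, 2 were higher and 0 lower, against 11.7% and 11.4%. In A549, 0 were higher and 2 lower, against 11.5% and 11.4%. The share past the fold thus lay near the background in each line. The medians of the 10 log2 fold changes were 0.13, 0.40 and 0.08 in H460, H1299 and A549, beside 0.02, 0.02 and 0.01 over all genes. In H1299, 9 of the 10 genes were higher after si-MALAT1 by any amount, beside 9256 of 17834 genes. In H460 and in A549, 7 of the 10 were, beside 9253 and 9045 of the same 17834 genes. The sum of TPM rose from 135 to 194 in H1299 and went down in both other lines.

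**Figure D3:**
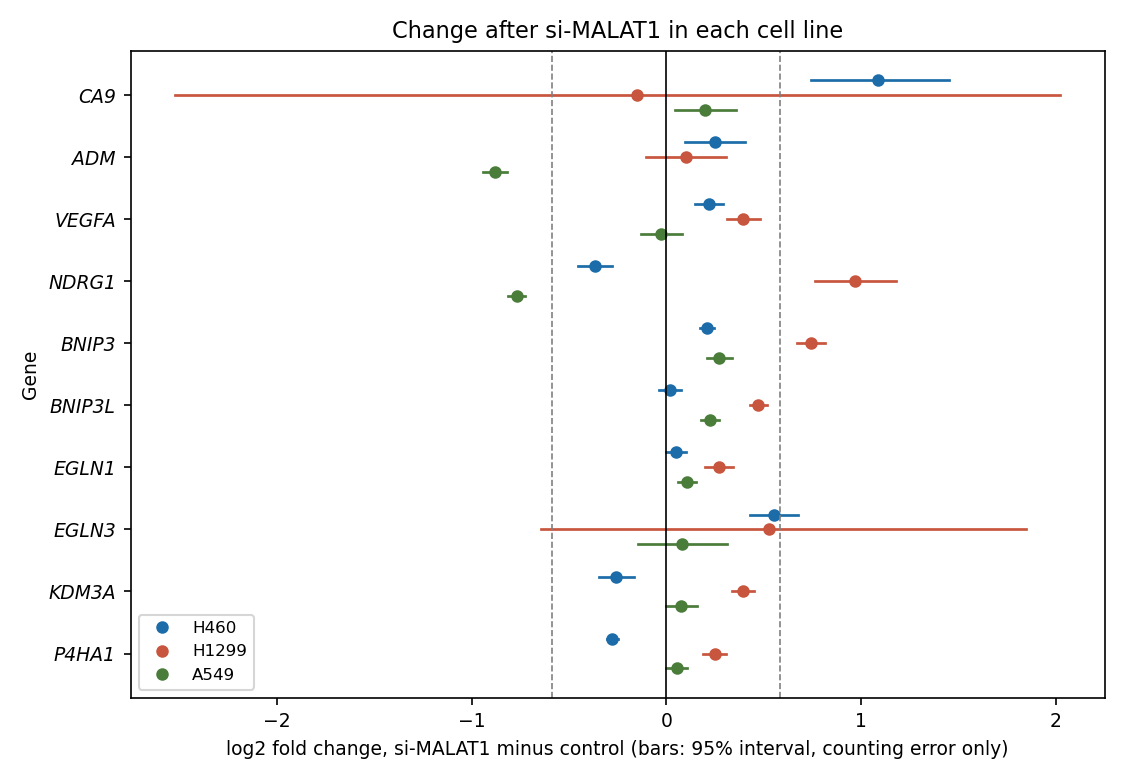
Log2 fold change of scaled reads, si-MALAT1 minus control, for each gene in H460 (blue), H1299 (red) and A549 (green), with 95% counting intervals and dashed lines at 1.5-fold. CA9 in H460 and NDRG1 and BNIP3 in H1299 lie right of the upper line, ADM and NDRG1 in A549 left of the lower one, and the intervals of CA9 and EGLN3 in H1299 are wide because they rest on 4 to 15 reads.

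NDRG1 took opposite courses in the lines. H1299 had 299 reads in the control and 535 after si-MALAT1, which is 0.97 on the log2 scale (0.76 to 1.18). A549 had 10221 and 6635 reads, which is -0.77 (-0.81 to -0.72), and H460 had 2556 and 1873, which is -0.37 (-0.45 to -0.28). The line with the least NDRG1 was thus the line where it was higher after si-MALAT1. Over the lines NDRG1 averaged -0.06 ± 0.91 (SD, n = 3). The edgeR fit gave an adjusted p of 0.902, and the alternatives gave 0.201 to 1.

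ADM also parted the lines. A549 had 5670 reads in the control and 3405 after si-MALAT1, 0.543 times the control level after scaling, or -0.88 on the log2 scale (-0.94 to -0.82). In H460 it was slightly higher, 0.25 (0.10 to 0.41), and in H1299 the interval held 0 (0.10, -0.11 to 0.31). ADM remained highest in A549 after si-MALAT1. Between the same A549 libraries the TPM of KRT8 went from 1778 to 793, that of KRT18 from 2918 to 1235 and that of EPCAM from 3.61 to 8.04, and their part in the ADM and NDRG1 values was not tested. ADM averaged -0.18 ± 0.61 (SD, n = 3), and edgeR gave it an adjusted p of 0.728.

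CA9 was 2.13-fold higher after si-MALAT1 in H460, with 101 reads in the control and 204 in the si-MALAT1 library, 1.09 on the log2 scale (0.74 to 1.45). In A549 the change was 0.20 (0.04 to 0.36). In H1299, with 5 and 4 reads, the interval from -2.52 to 2.03 allows a change in either direction. The adjusted p over the lines was 0.452. VEGFA, the other vascular gene beside ADM, changed by 0.22 (0.15 to 0.29) in H460, 0.40 (0.31 to 0.48) in H1299 and -0.02 (-0.13 to 0.08) in A549, and its adjusted p was 0.556.

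BNIP3 came nearest to a common change. It was higher after si-MALAT1 in all 3 lines, by 0.21 (0.17 to 0.25) in H460, 0.74 (0.67 to 0.82) in H1299 and 0.27 (0.21 to 0.34) in A549. In reads it went from 11257 to 12308, from 2516 to 3846 and from 3540 to 4729. BNIP3 averaged 0.41 ± 0.29 (SD, n = 3). The edgeR p-value was 0.0328 before adjustment and 0.287 after it, and the adjusted p ran from 0.0946 with DESeq2 to 1 without the line as a block. BNIP3L changed by 0.02 (-0.04 to 0.08), 0.47 (0.43 to 0.52) and 0.23 (0.18 to 0.27), with an adjusted p of 0.488. Of both mitophagy genes, the value in H1299 was the highest of the 3 lines.

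Neither oxygen sensor passed over the lines. EGLN1 changed by 0.05 (-0.0027 to 0.10) in H460, 0.27 (0.20 to 0.34) in H1299 and 0.11 (0.06 to 0.15) in A549, with an adjusted p of 0.663. EGLN3 changed by 0.55 (0.43 to 0.68) in H460, just inside the threshold of 0.58 for 1.5-fold, and by 0.08 (-0.14 to 0.31) in A549. In H1299 EGLN3 had 11 and 15 reads, and its interval ran from -0.64 to 1.85. Its adjusted p was 0.467. BNIP3, BNIP3L, EGLN1 and EGLN3 were the 4 genes that were higher in all 3 lines, and 0 were lower in all 3, beside 21.4% and 18.8% of all genes. On the TPM scale BNIP3L and EGLN1 were lower in H460 (-0.11 and -0.08), and BNIP3L was too with TMM-scaled reads (-0.0023).

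KDM3A and P4HA1 were lower in H460 and higher in H1299 by small amounts. KDM3A changed by -0.26 (-0.35 to -0.17) in H460, 0.39 (0.34 to 0.45) in H1299 and 0.08 (-0.0013 to 0.16) in A549. The P4HA1 change was -0.28 (-0.31 to -0.25) in H460, 0.25 (0.19 to 0.31) in H1299 and 0.05 (-0.00026 to 0.11) in A549. The adjusted p was 0.9 for KDM3A and 0.983 for P4HA1. For P4HA1 the mean of 0.01 ± 0.27 (SD, n = 3) was close to 0, and so was the value in the fit, whose sign turned with the scaling.

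Among the 12 subunits and regulators of the factors that were tested, 0 were called after si-MALAT1 by edgeR or DESeq2. At an unadjusted p under 0.05 in edgeR, 2863 of all 19122 genes passed, and 1 of the 12 did. That gene was HIF1AN, the asparaginyl hydroxylase that blocks the factors in oxygen. It was at 4.50 and 11.1 TPM in H1299 and 4.94 and 9.59 TPM in A549, log2 fold changes of 1.03 (0.97 to 1.10) and 0.79 (0.72 to 0.87), and at 5.59 and 4.38 TPM in H460, -0.08 (-0.15 to -0.01). Its adjusted p was 0.312 over the 3 lines, and 0.0484 without H460. CITED2, which competes with the factors for their coactivator and is itself a target, changed by 0.23, 0.93 and 0.17 in H460, H1299 and A549 (adjusted p = 0.336), and ELOC, a partner of VHL, by 0.27, 0.09 and 0.09 (0.624). VHL changed by -0.09, -0.32 and -0.12 (0.461), and EGLN2 by 0.21, -0.38 and -0.15 (0.723). EPAS1 changed by -0.56 (-0.62 to -0.50) in H460 and -0.20 (-0.25 to -0.14) in A549 and by 1.21 (0.30 to 2.36) on 13 and 29 reads in H1299 (0.759). HIF1A stayed within -0.13 to 0.25 in the 3 lines (0.977), and ARNT within -0.16 to 0.36 (0.871).

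Of the 30 further targets outside glycolysis, edgeR called 0 after si-MALAT1, with 7 at an unadjusted p under 0.05, and DESeq2 called 2 higher and 4 lower. Over all genes, 2863 of 19122 passed that unadjusted p with edgeR, and DESeq2 called 2.98% higher and 3.1% lower. ERO1A, which forms disulfide bonds in the endoplasmic reticulum, changed by 0.29, 0.63 and 0.71 (adjusted p = 0.158 with edgeR and 0.00365 with DESeq2), and P4HA2, the sister of P4HA1 in collagen hydroxylation, by 0.34, 0.86 and 0.46 (0.173 and 0.0131). HMOX1, a heme-degrading enzyme that other stresses also induce, changed by 1.01, 1.02 and 0.13 (0.21 and 0.0737). In each of the lines P4HA2 had a larger log2 fold change than P4HA1.

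Among the lower ones was CA12, a membrane carbonic anhydrase like CA9. It went from 16.7 to 8.80 TPM in H460 and from 182 to 95.02 TPM in A549, log2 fold changes of -0.86 (-0.92 to -0.79) and -0.97 (-0.99 to -0.94), and was at 0.00869 and 0.0115 TPM in H1299. Its adjusted p was 0.0915 with edgeR and 0.00197 with DESeq2. CA12 and CA9 thus lay on opposite sides of 0 in H460 and A549, the lines where both have more than 100 reads, and shared their near absence from H1299. TFRC, the transferrin receptor, changed by -0.46, -0.49 and -0.74 (0.119 and 0.000183), and STC2, a secreted regulator of calcium and phosphate, by -0.51, -1.12 and -0.37 (0.155 and 0.0124). In A549 the STC2 interval, on 111 and 95 reads, held 0 (-0.78 to 0.04).

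Of the 18 glycolytic targets edgeR called 0, with 4 at an unadjusted p under 0.05, and DESeq2 called 0 higher and 2 lower, to be read beside the same shares of all genes. HK2, which commits glucose to the pathway, changed by -0.91, -0.90 and -0.85 in H460, H1299 and A549. The A549 value rests on 61 and 37 reads, with an interval from -1.50 to -0.25. The adjusted p of HK2 was 0.0734 with edgeR, 0.0409 when only genes with reads in each library were tested, and 1.96e-05 with DESeq2. SLC2A1, the glucose transporter GLUT1, changed by -0.32, -0.39 and -0.66 (0.166 with edgeR and 0.0124 with DESeq2), and LDHA, which makes lactate, by -0.40, -0.11 and -0.41 (0.287 and 0.0949). PFKFB4, a regulator of the flow through glycolysis, changed by 0.35, 0.68 and 0.33 (0.244), ALDOC by 0.22, 0.16 and 0.53 (0.382), and GPI by 0.12, 0.33 and 0.06 (0.598). The median change of the glycolytic targets was -0.07, 0.01 and -0.18 in H460, H1299 and A549, and that of the further targets outside glycolysis -0.15, 0.24 and -0.18. Higher values were counted for 9, 26 and 11 of the 30 further targets in the same order, beside 9253, 9256 and 9045 of 17834 genes.

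**Figure D4:**
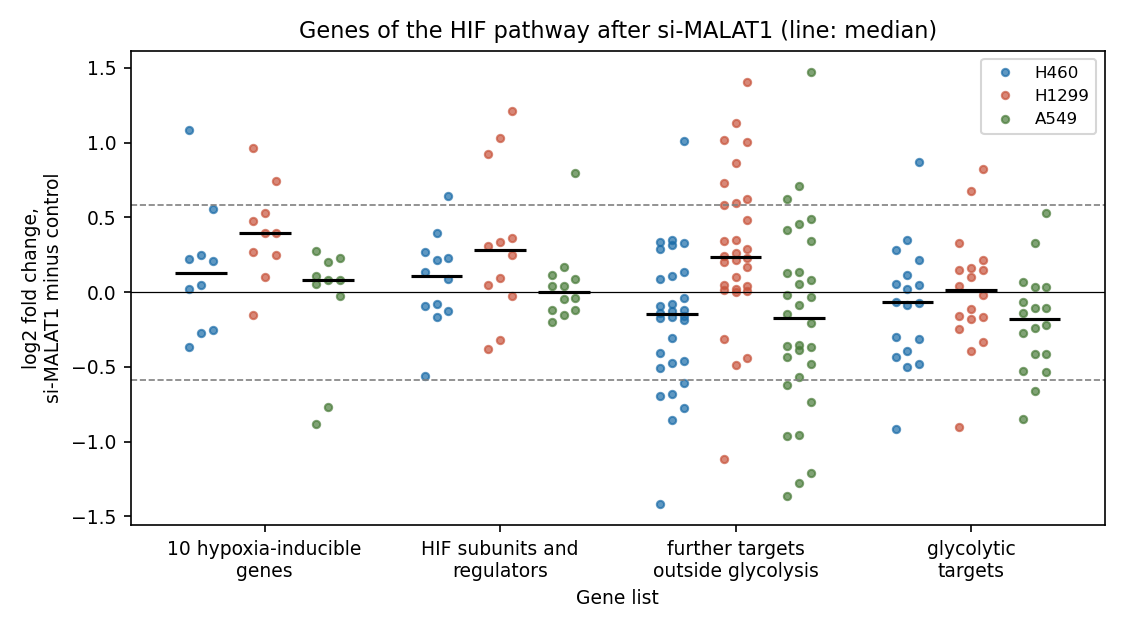
Log2 fold change after si-MALAT1 of every gene with reads in each library, in 4 lists of the hypoxia pathway, with 1 point per gene and line and a black bar at the median. The medians of the 10 genes are 0.13, 0.40 and 0.08 in H460 (blue), H1299 (red) and A549 (green), and those of the further targets outside glycolysis -0.15, 0.24 and -0.18. Dashed lines mark 1.5-fold.

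The words TGAATCA and ATGAATC, taken up from earlier results on these libraries, occurred in the 3' untranslated region of 0 of the 10 genes and of 17.5% of 13839 tested genes with such a region in GENCODE. These regions were 134 (CA9) to 2715 bases (BNIP3L) long in the 10 genes, with a median of 1317 over the tested genes. With only 10 genes, the count of 0 cannot be set apart from the share over the tested genes, and no test was run. In the other lists the words occurred in ARNT, ARNT2 and HIF1AN among 13 subunits and regulators, in 6 of 29 further targets and in 2 of 18 glycolytic targets.

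Some reads of the 10 genes could belong to neighbours or copies. BNIP3 overlaps PPP2R2D on the other strand, which had 1544 to 2270 reads, and EGLN1 overlaps LOC107985360, with 27 to 162 reads. The library kit marks strand, but whether the counting used it is not stated. The pseudogenes BNIP3P1 (41 to 175 reads) and EGLN1P1 (49 to 80 reads) had few reads beside their parent genes.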

How the data were processed

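Total RNA of 6 cultures was sequenced with a stranded kit after removal of ribosomal RNA. The submitters' processing notes list bcl2fastq 2.20.0, Trimmomatic, HISAT2 2.1.0 and StringTie 1.3.4b with the builds hg19 and GRCh38, while the study's methods name another StringTie version and hg38 alone. The deposited annotation is on GRCh38. The authors deposited read counts, FPKM and TPM per gene in a single table. FPKM values from the deposited table were not used. The deposited TPM values served to show levels, and all tests used the deposited counts. A further 18 columns of that table, from another study, were not used.

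edgeR 4.0.16 (R 4.3.3; quasi-likelihood test, TMM scaling, low counts filtered by treatment group) was fitted to the counts with cell line and treatment as terms, which left 2 residual degrees of freedom. The labels give each si-MALAT1 library a control of its own cell line, which is the pairing. Benjamini-Hochberg adjustment ran over 19122 genes and a call needed an adjusted p under 0.05. DESeq2 1.42.0 was the alternative test. Within a line, reads were scaled by median-ratio size factors, and log2(count + 1) was compared, with exact Clopper-Pearson 95% intervals that cover counting error only. Other scalings, filters and left-out libraries were also run, and the scripts were tested on simulated data. The 10 genes, the further gene lists, the words and the tests were chosen with earlier results of these data known. Named genes were all 10, the main subunits and regulators, and for each further list the 3 genes with the smallest p in each direction. Each condition of a line has 1 library, so p-values measure only the spread between these libraries. RefSeq promoters of GRCh38.p14 and GENCODE v44 transcripts gave the sequences. Python 3.11.15 was used.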

Additional observations from a re-analysis of the deposited data

Results flagged for a closer look

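ADM, NDRG1, KDM3A and P4HA1 moved in opposite directions in different cell lines after si-MALAT1, with counting intervals that left out 0 on each side. The highest and lowest log2 fold changes were 0.25 in H460 and -0.88 in A549 for ADM, 0.97 in H1299 and -0.77 in A549 for NDRG1, 0.39 in H1299 and -0.26 in H460 for KDM3A, and 0.25 in H1299 and -0.28 in H460 for P4HA1. With 1 library per line and condition the difference between lines was not tested for any of the 4.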

How the results depend on the processing

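With 1 library per line and condition, the lines are the only replicates of the knockdown. Over all genes, DESeq2 called 569 higher and 592 lower, a filter of at least 1 read in each library gave 44 and 103, and leaving out single lines gave 0 to 51 higher and 0 to 112 lower, both highest without H460. The number lower was 0 with no filter on low counts, with a filter on the full design (chosen after seeing the data), and without the cell line as a block, that is, without the pairing. None of these settings called any of the 10 genes. Without single lines, 0 to 1 regulators were called higher (HIF1AN, without H460). DESeq2 called 2 further targets higher and 4 lower, and 2 glycolytic targets lower. The uncalled knockdown values of 4 genes turned in sign. Over left-out lines they ran from -0.44 to 0.16 for ADM (0.16 without A549), from -0.58 to 0.26 for NDRG1 (0.03 without H460, 0.26 without A549), from -0.0938 (without H1299) to 0.22 for KDM3A, and from -0.12 to 0.14 (without H460) for P4HA1. P4HA1 was also 0.0045 with DESeq2, 0.0046 with RLE scaling and 0.0153 with library size alone. Between lines, the number called higher in H1299 than in H460 was 2 with DESeq2 and library size alone, and 1 to 2 over left-out libraries. A549 against H460 gave 3 to 6 higher and 1 to 4 lower over left-out libraries. A549 against H1299 gave 1 lower (KDM3A) with DESeq2, library size alone and only the 2 lines compared, and 0 to 1 over left-out libraries. Its 8 higher became 7 with library size alone, no filter on low counts or no block, and 6 to 8 over left-out libraries. The VEGFA difference between A549 and H1299 turned to -0.065 with library size alone and -0.0044 with no filter, and ran from -0.14 (without the control library of H1299) to 0.19 over left-out libraries, with -0.12 without the control library of A549. The ADM difference between H1299 and H460 was lost with library size alone (0.058). The block by treatment changed 1 call between lines, BNIP3L in A549 against H1299 (0.0746). Counts of the 10 genes past 1.5-fold within lines were the same under every setting run. The cause of these changes was not tested.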
